A study of Mus musculus with 6 samples.

Results

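The genes described here encode enzymes that make, activate or inactivate steroid hormones: the 3-beta-hydroxysteroid dehydrogenases of the Hsd3b cluster, the 17-beta-hydroxysteroid dehydrogenases Hsd17b2 and Hsd17b6, and the steroid 5-alpha-reductases Srd5a1 and Srd5a2. They were taken by gene symbol from a list of 10, and 8 of the 10 had a row among the 24927 rows of each expression table. Hsd3b4 and Hsd3b6 were not analysed here. The data are RNA-seq of whole liver from 6 C57BL/6 mice on a chow diet, all labelled male and 10 months old. The labels give 3 libraries as wild type and 3 as Cdkl3-/-, a knockout of the cyclin-dependent kinase-like gene Cdkl3 that the design text places in the liver, without naming a Cre line or the allele. The labels do not state that the libraries are from separate mice, and the p-values measure the spread between libraries only.

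Steroid hormones leave the blood largely through the liver. There, dehydrogenases oxidise or reduce the hydroxyl and keto groups that receptors recognise, and reductases saturate the ring of testosterone, progesterone and glucocorticoids. Some of these steps activate a hormone, as when a 5-alpha-reductase turns testosterone into dihydrotestosterone, and others switch it off. In mouse liver several of these genes are known to differ between the sexes under the control of growth hormone pulses, and Hsd3b5 is a textbook gene of the male liver.

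The promoters of a few of the genes are shown first, because the Hsd3b genes are close copies in 1 cluster on the minus strand of chromosome 3 and yet had unlike levels. Sequences are the 250 bases before the RefSeq gene start (GRCm38.p6), which were found for 7 of the 8 genes and are written 5′ to 3′ on the strand of the gene. Hsd3b5 (chr3:98645535-98645784, minus strand) and Hsd3b3 (chr3:98763129-98763378, minus strand) are shown with capitals for the stretch of 24 bases that both contain. Capitals in Srd5a1 (chr13:69611464-69611713, minus strand) and Srd5a2 (chr17:74047861-74048110, minus strand) mark CG dinucleotides.
Hsd3b5: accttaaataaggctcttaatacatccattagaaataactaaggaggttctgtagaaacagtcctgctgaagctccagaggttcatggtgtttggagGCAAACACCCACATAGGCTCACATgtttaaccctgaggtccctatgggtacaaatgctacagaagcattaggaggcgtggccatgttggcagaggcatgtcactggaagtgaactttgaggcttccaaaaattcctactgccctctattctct
Hsd3b3: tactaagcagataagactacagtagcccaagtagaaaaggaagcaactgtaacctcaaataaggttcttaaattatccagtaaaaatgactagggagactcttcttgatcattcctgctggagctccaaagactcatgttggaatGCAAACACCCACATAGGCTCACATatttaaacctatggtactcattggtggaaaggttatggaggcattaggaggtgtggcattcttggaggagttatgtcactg
Srd5a1: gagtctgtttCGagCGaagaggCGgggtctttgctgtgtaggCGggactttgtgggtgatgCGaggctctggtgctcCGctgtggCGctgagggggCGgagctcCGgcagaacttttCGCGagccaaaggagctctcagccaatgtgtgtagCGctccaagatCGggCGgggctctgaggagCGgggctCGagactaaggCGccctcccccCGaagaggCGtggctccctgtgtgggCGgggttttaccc
Srd5a2: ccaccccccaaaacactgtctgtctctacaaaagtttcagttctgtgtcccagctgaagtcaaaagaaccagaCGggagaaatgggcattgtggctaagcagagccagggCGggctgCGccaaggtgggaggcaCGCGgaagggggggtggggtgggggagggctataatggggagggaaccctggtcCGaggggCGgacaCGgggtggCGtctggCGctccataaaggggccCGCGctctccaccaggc

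The promoter windows of Hsd3b5 and Hsd3b3 aligned over 202 columns with 74.75% identical bases, while that of Hsd3b2 (chr3:98724544-98724793) aligned with either of them over only 31 to 38 columns. The 2 reductase promoters held 20 CG dinucleotides (Srd5a1) and 12 (Srd5a2), against a median of 6 (quartiles 2 and 16) over 32851 RefSeq promoter windows of the same length. The STAT5 motif TTCNNNGAA, which reads the same on both strands, occurred in 1 of the 7 windows, that of Hsd3b1, as TTCTCAGAA, and in 7.02% of all windows. ATTGAT or its reverse complement ATCAAT, the core motif of HNF6 and CUX2, was found in none of the 7 windows and in 6.72% of all windows. The letters say nothing on whether a factor binds.

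The 4 Hsd3b genes lie between positions 98618634 and 98859794 of chromosome 3 in GENCODE M21 (GRCm38), an annotation of an earlier build than the one the submitters' processing notes name (GRCm39). In that annotation Hsd3b5 spans 98618634 to 98630252, so its annotated 5′ end lies inside the RefSeq gene, whose start is next to 98645535. Hsd17b2 lies on chromosome 8 (117701904 to 117759027, plus strand), Hsd17b6 on chromosome 10 (127990936 to 128007611, minus strand), Srd5a1 on chromosome 13 (69573449 to 69611442, minus strand) and Srd5a2 on chromosome 17 (74016955 to 74047916, minus strand). A value per gene sums all its exons. Stretches of 50 bases that also occur in a transcript of another gene made up 26.93% of the Hsd3b2 transcripts, 21.2% of Hsd3b5, 8.73% of Hsd3b3 and 4.86% of Hsd3b1. The main partners were Hsd3b3 for Hsd3b2, the predicted gene Gm10681 and Hsd3b4 for Hsd3b5, Rdh1 for Hsd17b6 (12.07%) and a transcript model overlapping the gene for Srd5a1 (15.11%). Hsd17b2 had none. How the authors counted reads that fit several genes is not given in the sources used here, so levels of single Hsd3b genes are uncertain. Of other gene models overlapping a member, Nsun2 (over Srd5a1), Zfp697 (over 3 Hsd3b genes) and Gm31774 (over Hsd17b2) lie on the opposite strand. Reads of both strands cannot be told apart unless the counting used strand, which is not stated.

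The groups differed in more than the labelled genotype. About 20460000 to 48610000 reads were counted per library. Mitochondrial transcripts took 70.5% to 73.9% of all FPKM under the wild type label and 63.2% to 70.1% under the knockout label. Cdkl3 itself averaged 0.124 ± 0.039 FPKM (SD, n = 3) under the wild type label and 0.139 ± 0.060 FPKM under the knockout label, a log2 difference of 0.02 (SE 0.06, limma adjusted p = 0.84 without the filter). This value rests on 10 to 32 reads per library, and a deletion of single exons need not show in it. Whether an exon was missing was not tested. Xist, the RNA of the inactive X chromosome, reached 192 to 292 FPKM in every library of the wild type label and at most 0.0273 FPKM in the others. The 4 Y-linked genes measured had the opposite pattern, with Ddx3y at no more than 0.207 FPKM and at least 38.2 FPKM. Sex as shown by these genes and the labelled genotype cannot be told apart in any result below. Summed hepatocyte markers ran from 3134 to 4019 FPKM under the wild type label and from 6528 to 8252 FPKM under the knockout label, with 7 of 9 tested higher. Summed markers of stellate cells, most of it Dcn, ran from 76.1 to 130 and from 21.3 to 32.2 FPKM in the same order. Those of liver endothelium ran from 9.97 to 11.3 and from 5.47 to 5.90 FPKM. In each list 3 of 3 tested were lower. Markers too low to be tested did not share this fall. Col1a1 of the stellate list (means 0.0260 and 0.0520 FPKM) lay wholly higher under the knockout label. So did Clec4g (0.199 and 0.545 FPKM) and Pecam1 (0 and 0.0837 FPKM) of the endothelial list, while Stab1 and Stab2 overlapped. In whole tissue, fewer cells of a type and less RNA per cell cannot be told apart. Among Kupffer cell markers 2 of 4 were lower (summed 22.3 to 40.0 and 13.6 to 56.2 FPKM) and among cholangiocyte markers 1 of 2 was higher (50.3 to 68.0 and 29.3 to 50.9 FPKM). The part of these differences in the results below was not tested.

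Of the 8 steroid enzyme genes, 4 had values in the libraries labelled knockout that all lay above those labelled wild type: Hsd3b5, Hsd17b2, Hsd17b6 and Srd5a1. None lay wholly below. Over the 20529 genes fitted without a filter on low values, 27.7% lay wholly above and 10.1% wholly below (37.8% in all). Of the 5 members that passed the filter of the main comparison 2 lay wholly above, against 38.0% of the filtered genes (25.8% below, 63.9% in all). Only 5 of the 8 reached 1 FPKM in at least 3 libraries, as the main comparison required, and 2 of these 5, Srd5a1 and Hsd17b6, were called higher by limma at an adjusted p under 0.05 and none lower (none at an unadjusted p under 0.05 either), against 33.7% higher and 20.4% lower of all 5673 genes (54.1% in all). The median log2(FPKM + 1) difference of the 5 was 0.78, against 0.12 over all genes tested, and is the value of Srd5a2. Without knockout replicate 1, over the same genes, it was 0.21, against 0.14 over all genes. Without the filter, 4 of 8 were called higher and none lower, against 15.4% higher and 5.09% lower of 20529 genes (20.5% in all). That count was 2 with any library labelled wild type left out, 3 without knockout replicate 1 or 2 and 4 without knockout replicate 3. Hsd3b3 was then called lower without knockout replicate 2. The 2 of 5 tested members called higher are close to the share over all genes.

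**Figure D1:**
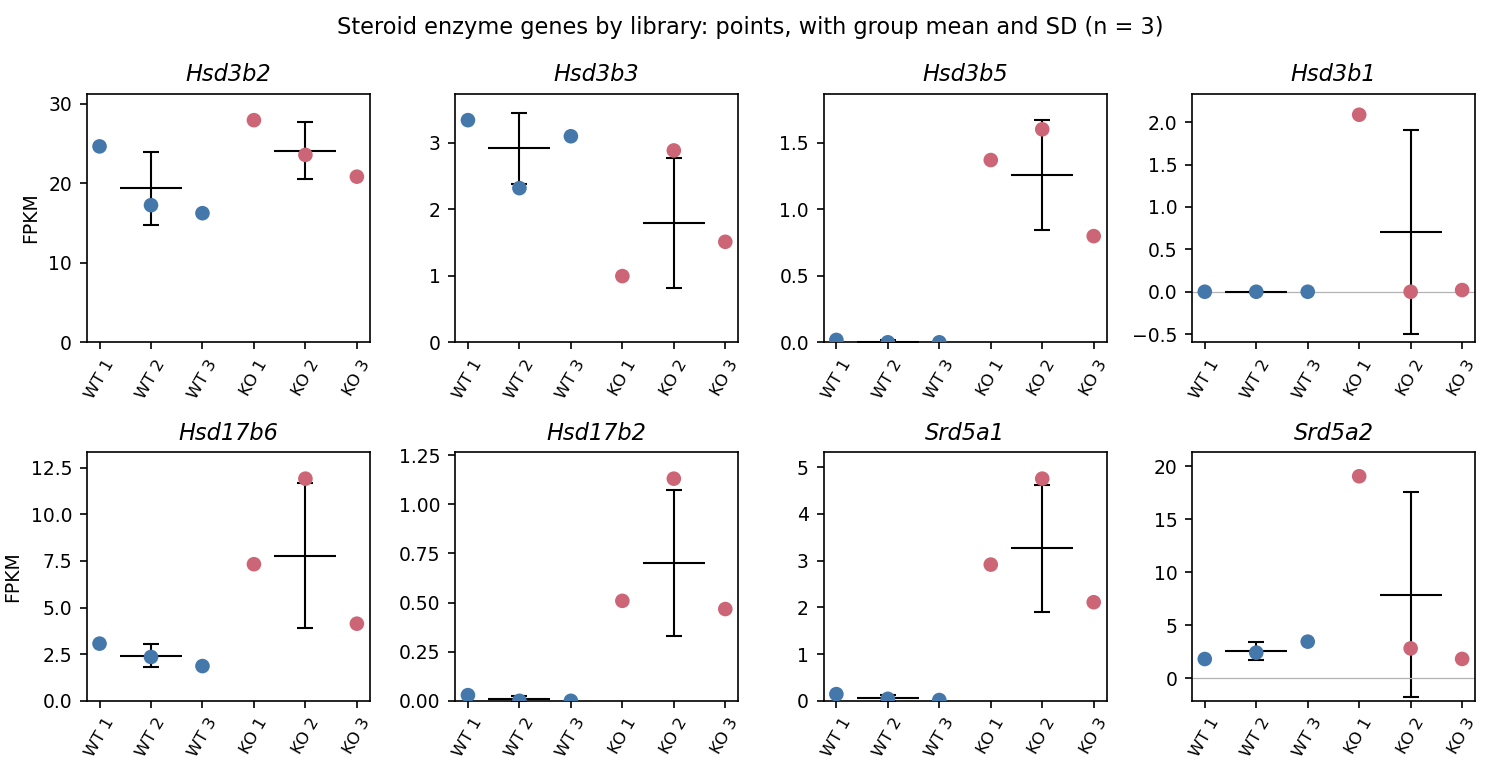
FPKM of the 8 steroid enzyme genes in each library (points; blue, labelled wild type, WT; red, labelled knockout, KO), with the mean and SD of each group of 3 in black, on linear axes that differ between panels. Hsd3b5, Hsd17b2, Hsd17b6 and Srd5a1 do not overlap between groups, Hsd3b2 and Hsd3b3 do, and Hsd3b1 and Srd5a2 stand high in knockout replicate 1 alone.

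Among the 3-beta-hydroxysteroid dehydrogenases, Hsd3b2 carried most of the transcript in every library. Hsd3b2, a form known from liver and kidney, measured 24.6, 17.2 and 16.2 FPKM in wild type replicates 1 to 3 and 27.9, 23.6 and 20.8 FPKM in knockout replicates 1 to 3. The groups overlapped, since wild type replicate 1 lay above 2 of the 3 libraries labelled knockout. With means of 19.4 ± 4.59 and 24.1 ± 3.58 FPKM, its log2 difference was 0.32 (SE 0.21, 95% interval -0.16 to 0.79, adjusted p = 0.23). These levels rest on 1227 to 3443 reads per library.

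Hsd3b3, the other form common to liver and kidney, measured 3.34, 2.32 and 3.09 FPKM in wild type replicates 1 to 3 and 0.994, 2.88 and 1.51 FPKM in knockout replicates 1 to 3. Knockout replicate 2 lay inside the wild type range, and the other two lay below it. The log2 difference was -0.53 (SE 0.25, 95% interval -1.12 to 0.05, adjusted p = 0.11), from means of 2.92 ± 0.534 and 1.80 ± 0.976 FPKM. The call depended on scaling: Hsd3b3 was called lower after median centring (-0.82, adjusted p = 0.016), quantile normalization (-0.92, 0.015) or scaling to FPKM outside the mitochondrial transcripts (-0.79, 0.035), and without knockout replicate 2 (-0.80, 0.022). In the fit without the filter the call stayed after median centring (-0.82, adjusted p = 0.0020). It was lost there after quantile normalization (-0.87, adjusted p = 0.054) and with mitochondrial scaling (-0.79, 0.11). In the filtered fit, with the dependence on GC content and exon length removed, the difference of Hsd3b3 shrank to -0.17 (adjusted p = 0.63). At 37.7% GC it has the lowest GC content of the 8 genes, and among tested genes under 40% GC, 39.8% were called lower and 11.7% higher.

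Hsd3b5, which reduces 3-ketosteroids and is the male-type form in mouse liver, was close to absent in 1 group. It was listed at 0.0179 FPKM in wild type replicate 1 and at 0 in wild type replicates 2 and 3, against 1.37, 1.60 and 0.797 FPKM in knockout replicates 1 to 3. In reads these values are 1, 0 and 0 against 52, 98 and 33. The 2 libraries at 0 allow up to 0.0398 and 0.0947 FPKM, the value of 3 reads, so the groups stayed apart at this depth. Hsd3b5 rose by 1.15 on the log2(FPKM + 1) scale (SE 0.15, 95% interval 0.79 to 1.51, adjusted p = 0.0059 without the filter), and without knockout replicate 1 the difference was 1.10 (adjusted p = 0.013). The pooled read rate was 212 times higher in the libraries labelled knockout, with an exact 95% interval from 37.5 to 8412 (counting error only) that rests on 1 read in the other group. Even its highest value was low beside Hsd3b2, whose level in the same library was 23.6 FPKM. Hsd3b5 was under the filter, since only 2 libraries reached 1 FPKM, and it passed the test only in the fit without it.

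Hsd3b1, the form of adrenal gland and gonads, came almost wholly from 1 library. It was listed at 0 in wild type replicates 1 to 3, at 2.09 FPKM in knockout replicate 1, at 0 in knockout replicate 2 and at 0.0202 FPKM in knockout replicate 3, which is 95, 0 and 1 reads. A count of 0 allows up to 0.0333 to 0.0790 FPKM in these libraries. The log2 difference of 0.55 (SE 0.43, adjusted p = 0.44 without the filter) fell to 0.01 without knockout replicate 1.

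The makeup of the summed Hsd3b signal shows the same genes without any scaling between libraries. The shares still carry any dependence of a library on GC content and exon length. Hsd3b3 has 37.73% GC and 6396 exon bases, Hsd3b2 44.84% and 3695, Hsd3b1 47.17% and 1855, and Hsd3b5 48.55% and 1549. The part of that dependence in the shares was not tested. Hsd3b2 held 88.0%, 88.2% and 84.0% of the summed FPKM of the 4 genes in wild type replicates 1 to 3 and 86.3%, 84.0% and 89.9% in knockout replicates 1 to 3, with means of 86.7% in both groups. Hsd3b3 held 11.9%, 11.8% and 16.0% against 3.07%, 10.3% and 6.52%, and each library labelled knockout was below each labelled wild type. Its share was thus 13.3 ± 2.39% and 6.62 ± 3.60%, a change of -6.64 percentage points. Hsd3b5 went from at most 0.0640% to 4.23%, 5.70% and 3.44%. For Hsd3b3 and Hsd3b5 the two-sided exact permutation test gave p = 0.1, the smallest that 3 against 3 libraries allow, and an adjusted p of 0.2 over the 4 genes. Hsd3b1 held 6.45% in knockout replicate 1 and at most 0.0871% elsewhere (exact permutation p = 0.4). The summed signal was 19.3 to 28.0 FPKM and 23.2 to 32.4 FPKM (exact permutation p = 0.2).

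**Figure D2:**
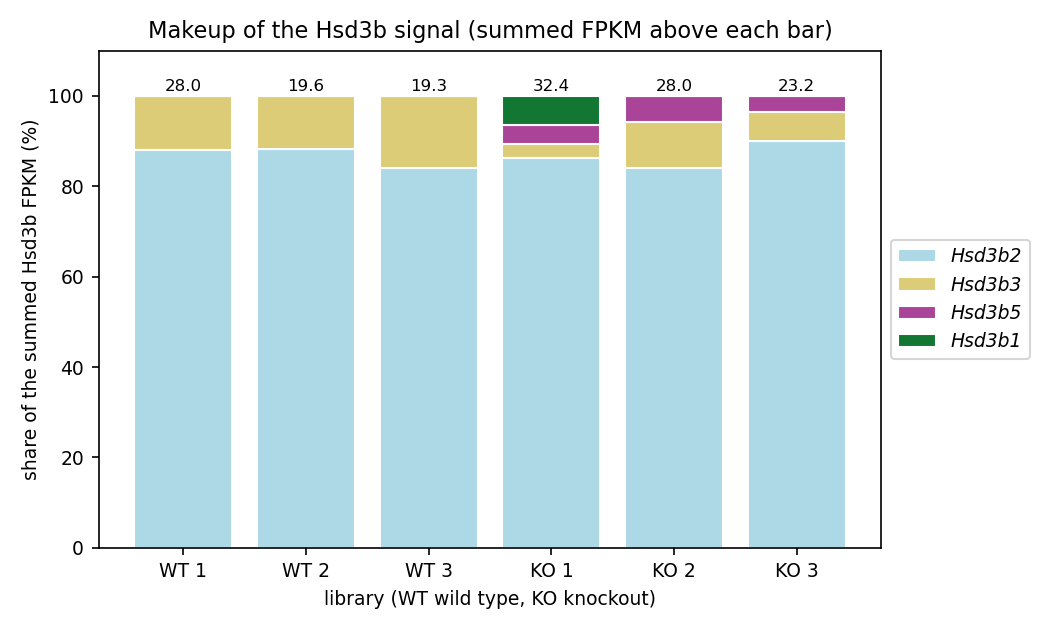
Share of each Hsd3b gene in the summed Hsd3b FPKM (y axis, percent) in the 6 libraries (x axis), with the summed FPKM above each bar. Hsd3b2 fills 84.0% to 89.9% of every bar, Hsd3b5 is visible only in the libraries labelled knockout and Hsd3b1 only in knockout replicate 1.

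Hsd17b6, an oxidative enzyme close to the retinol dehydrogenases that can return 3-alpha-androstanediol to dihydrotestosterone, was higher in the libraries labelled knockout. It measured 3.07, 2.35 and 1.86 FPKM in wild type replicates 1 to 3 and 7.33, 11.9 and 4.13 FPKM in knockout replicates 1 to 3. The lowest library labelled knockout lay above the highest labelled wild type. The means were 2.43 ± 0.606 and 7.79 ± 3.91 FPKM, a ratio of 3.21, and Hsd17b6 rose by 1.27 on the log2 scale (SE 0.32, 95% interval 0.53 to 2.02, adjusted p = 0.011). The call was lost when the dependence of each library on GC content and exon length was removed (0.30, adjusted p = 0.40) and when values were scaled to FPKM outside the mitochondrial transcripts (0.99, 0.057). In the fit without the filter on low values, the GC and length trend was fitted over a larger set of genes, including those near 0. Its removal there left 1.02 for Hsd17b6 (adjusted p = 0.027). For Srd5a1 it left 1.68, against 1.09 in the filtered fit, so the 2 removals are not equal corrections. Without knockout replicate 1, over the same genes, the difference was 1.26 (adjusted p = 0.028). In the fit without the filter Hsd17b6 was called (adjusted p = 0.045). It lost that call with any library other than knockout replicate 3 left out (adjusted p 0.072 to 0.14). The call without the filter was also lost after quantile normalization (adjusted p = 0.12) and with mitochondrial scaling (0.16). It stayed after median centring (adjusted p = 0.011).

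Hsd17b2, which oxidises estradiol and testosterone to their less active keto forms, was close to absent in the libraries labelled wild type. It was listed at 0.0288, 0 and 0 FPKM there, from 2, 0 and 0 reads, and at 0.509, 1.13 and 0.467 FPKM in the libraries labelled knockout, from 24, 86 and 24 reads. Every library labelled knockout was above the 0.0321 and 0.0762 FPKM that the 2 counts of 0 allow. Hsd17b2 rose by 0.73 on the log2(FPKM + 1) scale (SE 0.15, 95% interval 0.37 to 1.10, adjusted p = 0.021 without the filter), a scale that understates changes at such levels. The pooled read rate was 77.6 times higher (exact 95% interval 21.1 to 647, counting error only, from 2 reads against 134). With any one of the libraries labelled wild type left out the adjusted p lay between 0.055 and 0.078. Without knockout replicate 1 the difference was 0.81 (adjusted p = 0.026).

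The 2 steroid 5-alpha-reductases, which turn testosterone into dihydrotestosterone, behaved differently. Srd5a1, the form expressed widely outside the reproductive tract, measured 0.143, 0.0424 and 0.0168 FPKM in wild type replicates 1 to 3 and 2.91, 4.75 and 2.11 FPKM in knockout replicates 1 to 3. The groups were far apart, with 15, 6 and 1 reads against 208, 547 and 164. Srd5a1 rose by 1.95 on the log2 scale (SE 0.22, 95% interval 1.44 to 2.46, adjusted p = 0.00036), and the pooled read rate was 48.4 times higher (exact 95% interval 31.7 to 77.5, counting error only). It was called under each of the 12 alternative settings in which it was tested, with differences from 1.09, after the trend on GC content and length was removed, to 4.32, with a pseudocount of 0.1. The filter let Srd5a1 in through the libraries labelled knockout alone, and of the 631 tested genes that stayed below 1 FPKM throughout the wild type label, 97.3% were called higher. Its GC content was 51.5%, and among tested genes of 50 to 55% GC, 55.5% were called higher.

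Srd5a2, the reductase of male reproductive tissues, measured 1.83, 2.44 and 3.47 FPKM in wild type replicates 1 to 3 and 19.1, 2.84 and 1.84 FPKM in knockout replicates 1 to 3. Knockout replicates 2 and 3 lay within the range of the other group and knockout replicate 1 stood far above all 5 others. The log2 difference of 0.78 (SE 0.74, 95% interval -1.03 to 2.58, adjusted p = 0.41) became -0.09 (SE 0.25, 95% interval -0.66 to 0.48) without that library. The pooled read rates of the remaining libraries then gave a ratio of 1.00 (exact 95% interval 0.854 to 1.17, counting error only).

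**Figure D3:**
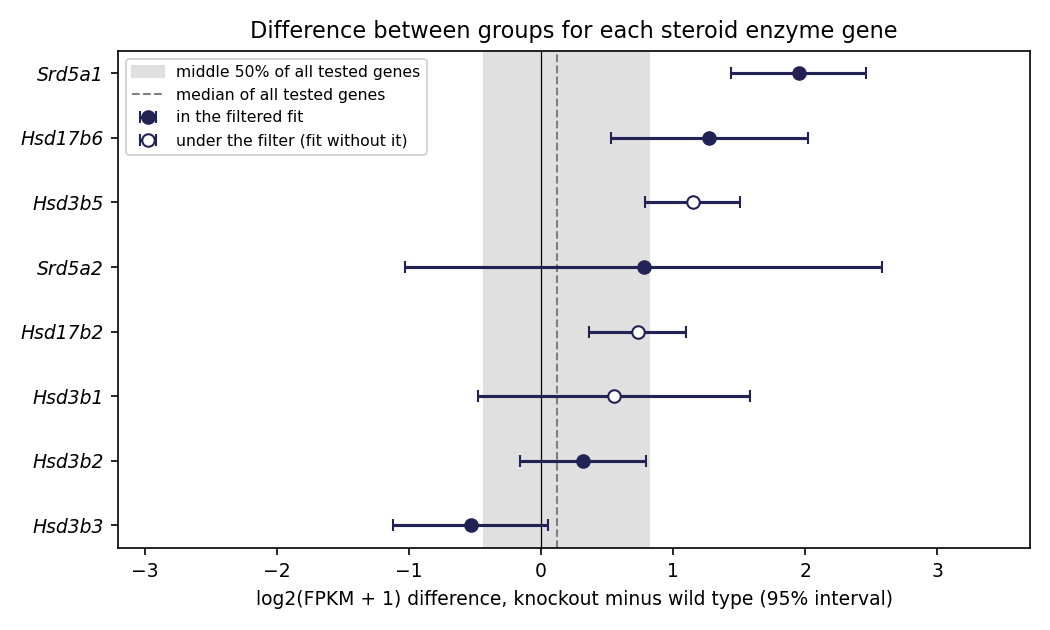
Difference in log2(FPKM + 1), knockout minus wild type (x axis), for the 8 steroid enzyme genes, with 95% intervals from limma; open circles are the 3 genes under the filter, from the fit without it, the grey band is the middle 50% of the 5673 tested genes (-0.43 to 0.81) and the dashed line their median (0.12). The intervals of Srd5a1, Hsd17b6, Hsd3b5 and Hsd17b2 lie above 0.

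In order of level, FPKM being per kilobase, the libraries labelled wild type held Hsd3b2 first (16.2 to 24.6 FPKM). Hsd3b3, Srd5a2 and Hsd17b6 followed at 1.83 to 3.47 FPKM with overlapping ranges, so their order cannot be given. Srd5a1 came next, at no more than 0.143 FPKM, and Hsd17b2, Hsd3b5 and Hsd3b1 were at or near 0. In knockout replicates 2 and 3 Hsd3b2 was again first. Hsd17b6 was second within each of them, at 11.9 and 4.13 FPKM, though its range overlapped that of Srd5a1 (4.75 and 2.11 FPKM). Srd5a1, Srd5a2 and Hsd3b3 overlapped between 1.51 and 4.75 FPKM. Hsd3b5 at 1.60 and 0.797 FPKM overlapped with Hsd3b3 and with Hsd17b2, which had the lowest values of the detected genes apart from Hsd3b1, at 1.13 and 0.467 FPKM. Among the libraries labelled knockout, replicate 2 was highest for Hsd3b3, Hsd3b5, Hsd17b2, Hsd17b6 and Srd5a1.

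Knockout replicate 1 also held transcripts of kidney and adrenal gland. Of 13 kidney markers 12 were highest there, and their sum was 5329 FPKM against 1.98 to 6.90 FPKM in the 5 other libraries, most of it Kap. Kap was also at 4.18 and 5.72 FPKM in knockout replicates 2 and 3, against at most 0.0785 FPKM under the wild type label. Of 5 markers of adrenal gland and gonads 4 were highest there. The cholesterol transporter Star was at 13.1 FPKM against at most 0.986 FPKM elsewhere, the corticosterone-forming enzyme Cyp11b1 at 3.48 against at most 0.0118 FPKM, and the corticotropin receptor Mc2r (0.775 FPKM) and Akr1b7 (1.15 FPKM) were listed at 0 in all 5 others. Cyp17a1, at 1.21 FPKM, lay within the 0.946 to 7.87 FPKM of the others. Hsd3b1 and Srd5a2 were the members that went with this library. The part of kidney or adrenal tissue in their values was not tested. Hsd3b5, Hsd17b2, Hsd17b6 and Srd5a1 differed about as much without it, as given above and, for Srd5a1, by 1.99 over the same genes (adjusted p = 0.00079), a setting chosen after seeing the data.

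**Figure D4:**
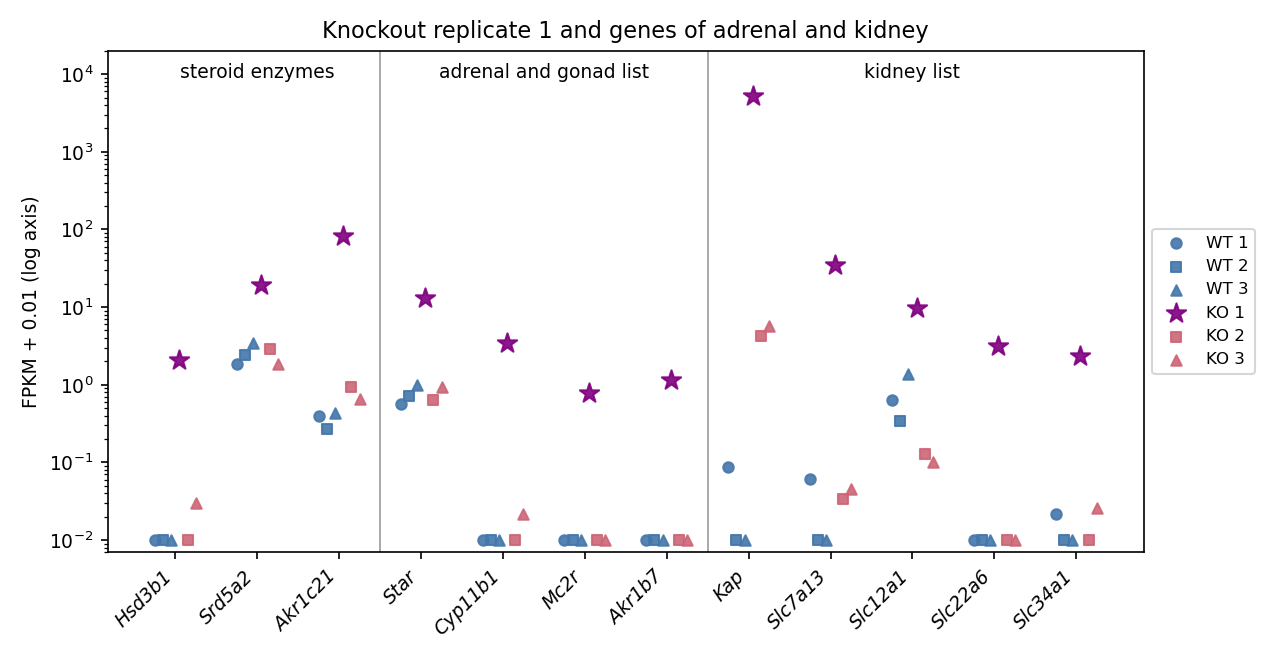
FPKM + 0.01 on a log axis for Hsd3b1, Srd5a2 and the aldo-keto reductase Akr1c21, for 4 markers of the adrenal and gonad list and for 5 markers of the kidney list, in each library (blue, labelled wild type; red, labelled knockout; purple star, knockout replicate 1). The star is the highest point for every gene shown, at 2.09 FPKM for Hsd3b1, 19.1 FPKM for Srd5a2 and 83.1 FPKM for Akr1c21.

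Profiles most like those of 2 members were searched among the tested genes, as the root mean square distance of centred log2(FPKM + 1) over the 6 libraries. Nearest to Srd5a1 were Nmi (0.063), Ces2g (0.072), Slco2b1 (0.089), Mpc1-ps (0.10) and Cpn2 (0.11). Nearest to Hsd3b3, the tested member with the lowest difference, were Lacc1 (0.082), Mbl2 (0.13), Cyp2c68 (0.14), Gm49125 (0.16) and Evi2a (0.16). In each of these last 5 genes knockout replicate 2 was the highest library labelled knockout, as it was for Hsd3b3. All these profiles come from the same 6 libraries and share their scaling.

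Other enzymes of the same families are given by list, to be read against 33.7% of all tested genes called higher and 20.4% lower. Among 8 further Hsd17b and Hsdl genes with a row, 7 were tested, 5 rose and 1 fell, with a median log2 difference of 1.60 against 0.12 over all genes. The gene that fell, named after its values were seen, was Hsdl2 (153 ± 20.3 to 77.1 ± 13.7 FPKM). Hsd17b13, a lipid droplet protein, rose from 12.5 ± 7.64 to 138 ± 40.3 FPKM (adjusted p = 0.00036) and Hsd17b12, a reductase of fatty acid elongation, from 26.0 ± 12.5 to 104 ± 23.4 FPKM (adjusted p = 0.0014). Hsd17b10 went from 0.0570 ± 0.0227 to 2.39 ± 1.41 FPKM and Hsdl1 from 0.115 ± 0.103 to 1.66 ± 0.351 FPKM, both called, and both were below 1 FPKM throughout the wild type label, as Srd5a1 was, where 97.3% of tested genes were called higher. The median of 1.60 is the value of Hsd17b10. The call of Hsd17b10 was lost after removal of the trend on GC content and length (0.49, adjusted p = 0.12). Of 6 tested aldo-keto reductases of the 1C family, which interconvert keto and hydroxy steroids, 4 rose and none fell (median 1.67). Akr1c6, the 17-beta-hydroxysteroid dehydrogenase of this family, rose from 116 ± 37.6 to 600 ± 125 FPKM (adjusted p = 0.00034). Akr1c12, Akr1c13 and Akr1c20 also rose, by 2.64, 2.64 and 0.95, and the call of Akr1c20 was lost with scaling outside mitochondrial transcripts (0.58, adjusted p = 0.12) and without knockout replicate 2 (0.77, 0.055). Of 4 tested retinol dehydrogenases and relatives of Hsd17b6, 2 rose, Rdh7 from 0.281 ± 0.0594 to 2.58 ± 1.07 FPKM and Dhrs9 from 0.155 ± 0.0838 to 1.24 ± 0.160 FPKM, and none fell (median 0.76). Both were among the genes below 1 FPKM throughout the wild type label. The 5-beta-reductase Akr1d1, which competes for the same substrates as the 5-alpha-reductases, fell from 186 ± 1.34 to 46.4 ± 7.61 FPKM (adjusted p = 0.00014), opposite to Srd5a1, while the sterol dehydrogenase Nsdhl rose from 3.19 ± 1.35 to 17.5 ± 8.60 FPKM. These were the 2 tested of 3 further reductase and 3-beta-dehydrogenase genes with a row (median 0.06).

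The other lists around steroid action were mixed. Of 4 tested steroid receptors 1 rose and 2 fell (median -0.55), and none rose after median centring or mitochondrial scaling. Esr1 fell from 7.22 ± 2.15 to 3.09 ± 1.05 FPKM and the mineralocorticoid receptor Nr3c2 from 6.31 ± 1.48 to 2.57 ± 0.803 FPKM. Of 13 tested genes of sulfation and glucuronidation 5 rose and 5 fell (median 0.17), with the transferases Ugt2b5 (1.32) and Ugt2b1 (1.39) higher and the sulfotransferases Sult3a1 (-8.07) and Sult2a2 (-3.89) lower. Of 7 tested cytochrome P450 steroid hydroxylases 6 rose and 1 fell (median 1.50), and 1 of the 6 was below 1 FPKM throughout the wild type label. Cyp7b1, the oxysterol hydroxylase, rose by 3.69, Cyp2c29 by 2.16 and Cyp2a5 by 1.50, while Cyp3a44 fell by 3.32. Of 4 tested glucocorticoid genes 2 rose (median 0.94), the carrier Serpina6 from 0.160 ± 0.0799 to 3.81 ± 2.20 FPKM and H6pd from 0.0920 ± 0.0534 to 3.79 ± 0.786 FPKM, and both again were below 1 FPKM throughout the wild type label. Among 8 tested genes of growth hormone signalling and sex-biased regulation 3 rose and 1 fell (median 0.23), with the repressor Bcl6 higher (1.57, adjusted p = 0.0018) and Trim24 lower (-1.47, 0.0048). Socs2 (0.98) and Onecut1 (0.64) were called too, but both calls were lost after median centring (adjusted p = 0.057 and 0.18), quantile normalization and mitochondrial scaling, and with knockout replicate 1, knockout replicate 2 or wild type replicate 3 left out (adjusted p 0.051 to 0.062 and 0.104 to 0.114). Those fits applied the filter anew. Without knockout replicate 1, over the same genes, Socs2 kept its call (0.85, adjusted p = 0.046) and Onecut1 did not (0.47, 0.097). Onecut1 also lost its call without wild type replicate 2 (0.104) and after removal of the trend on GC content and length (0.05, adjusted p = 0.86). Without the filter neither was called (Socs2 0.057, Onecut1 0.093). None of 3 tested genes of hormone synthesis from cholesterol was called by limma (median -0.48), while 2 had an unadjusted p under 0.05, and Fdx1 (0.78, adjusted p = 0.060) and Cyb5a (-0.48, 0.076) came nearest. After median centring, mitochondrial scaling or trend removal 2 of the 3 were called lower, Cyb5a among them (-0.77, -0.86 and -1.26, adjusted p = 0.018, 0.014 and 0.0019). Fdx1 was called higher without wild type replicate 1 (1.05, adjusted p = 0.020) and with the replicate block (0.78, 0.011). Without the filter 1 of 7 genes of this list was called higher and 0 lower, against 15.4% higher over all genes.

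**Figure D5:**
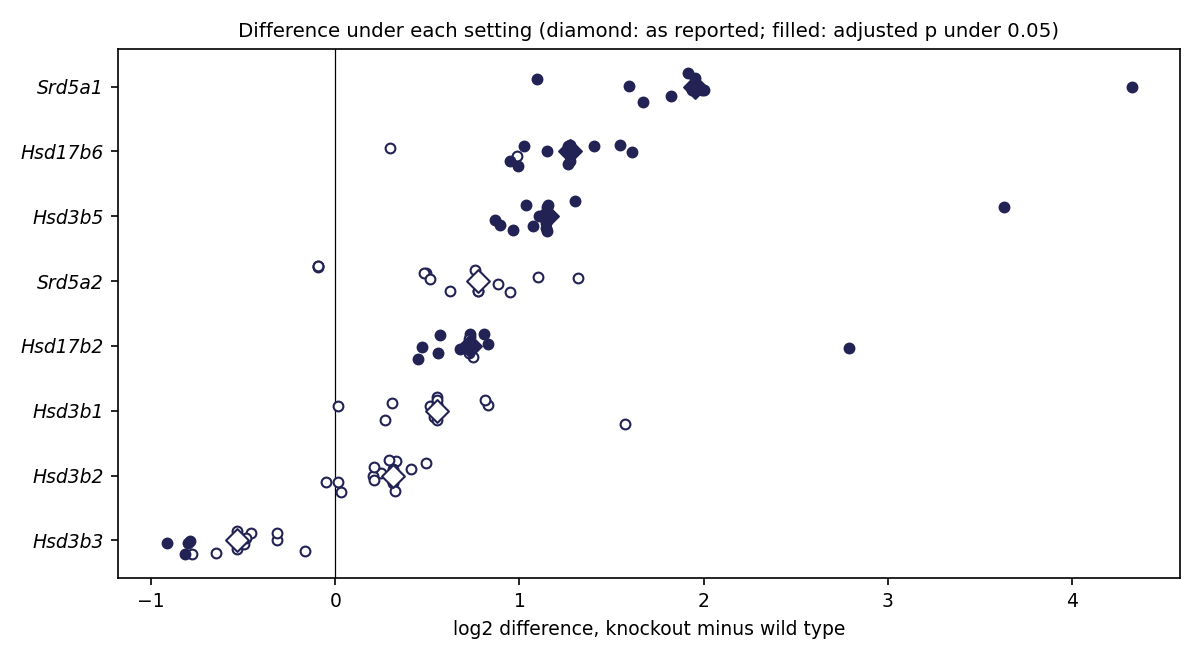
Log2 difference, knockout minus wild type (x axis), of each steroid enzyme gene as reported (diamond) and under each other setting tried (circles); filled symbols passed an adjusted p of 0.05. Srd5a1 and Hsd3b5 are filled throughout, Hsd17b6 and Hsd17b2 lose some calls, and Hsd3b2 and Srd5a2 reach both sides of 0. Symbols of Hsd3b1, Hsd3b5 and Hsd17b2 come from fits without the filter.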

How the data were processed

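Liver RNA from 3 libraries labelled wild type and 3 labelled Cdkl3-/- was sequenced. The deposited tables give 1 FPKM per row (fragments scaled for transcript length and library depth), made by the authors, per the file headers. The submitters' processing notes name HISAT2 and GRCm39; the tool that counted reads and its annotation: not given in the sources used here. The header code of the library labelled knockout replicate 3 differs from its title; the label was used.

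Identifier and symbol named the same gene in 0 of 24927 rows. FPKM times GENCODE M21 exon length by symbol gave whole reads (within 0.15, up to 40 reads) for 98.91% of 43485 values, and for 30.01% by identifier. For the 8 members the reads were whole to within 0.002. Symbols were used, and the 1787 rows of the chromosome 1 block (35.7% whole) and 119 rows without a symbol were left out. Depth was about 20460000 to 48610000 counted reads.

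Log2(FPKM + 1) was fitted with limma 3.58.1 (R 4.3.3; trend, robust) on genotype, keeping the 5673 genes that reached 1 FPKM in 3 or more libraries, with Benjamini-Hochberg adjustment; adjusted p had to be under 0.05. On simulated data for knockout against wild type (5673 genes) it found 61% of 100 genes changed by 1 and 88% of 100 changed by 2 on the log2 scale, and called 6 unchanged genes. The simulation drew independent noise and changed far fewer genes than the 54.1% called in the data. Its rates therefore need not hold for this comparison. Members, gene lists and settings were chosen with earlier results of these data known. The text names all members, up to 4 genes of each list by smallest adjusted p among those called (or 2 where none was), and the 5 nearest profiles of 2 members; 1 gene that the rule names is not reported here. Some fixed list genes had no usable row or lay in the chromosome 1 block. Exact intervals of the pooled read rates and floors (3 reads) cover counting error only. Intervals of the log2 differences are from limma and measure the spread between libraries. Alternatives were a pseudocount of 0.1, other filters and scalings, a replicate block, removal of a loess trend on GC content and exon length (span 0.5), and leaving out each library. Promoters are from RefSeq (GRCm38.p6). Python 3.11.15, numpy 2.4.6, pandas 2.3.3, scipy 1.17.1, matplotlib 3.10.9 and Biopython 1.88 were used.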

Additional observations from a re-analysis of the deposited data

How the results depend on the processing

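Srd5a1 and Hsd3b5 kept their direction and call (adjusted p under 0.05) under every alternative in which they were tested. Hsd3b5 was tested only in fits without the filter. There the trend on GC content and length was fitted over a larger set of genes, including those near 0. Its removal left 1.68 for Srd5a1, against 1.09 in the filtered fit. Hsd3b5 was thus not tested under the trend removal of the filtered fit. Of the members, 2 were called, both higher. This was 4 without the filter, 0 at 10 FPKM (1 member tested), 1 at an adjusted p under 0.01 and 1 after removal of the trend on GC content and length, and 1 to 2 with a library left out, where Srd5a1 was not tested without a knockout replicate. With scaling outside mitochondrial transcripts 1 was higher and 1 lower, and 1 was lower after median centring and after quantile normalization and 0 to 1 with a library left out, the 1 being Hsd3b3 (-0.82, -0.92 and -0.79 under median centring, quantile normalization and mitochondrial scaling, -0.80 to -0.32 with a library left out). In the filtered fit Hsd17b6 was not called with mitochondrial scaling (0.99) or trend removal (0.30). Hsd17b2 ranged from 0.56 to 0.83 with a library left out, and its call was lost without wild type replicate 1 (0.75), 2 (0.73) or 3 (0.73). Hsd3b2 turned to -0.048 with mitochondrial scaling, and Srd5a2 to -0.094 with trend removal and to -0.091 without knockout replicate 1 (also over the same genes, a setting chosen after seeing the data, like the fits of low genes), with -0.091 to 1.32 as the range. The share of Hsd3b2 differed by 0.02 percentage points, from -1.58 to 1.38 with a library left out. The cause of these shifts was not tested.

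Over all genes 1911 were higher and 1157 lower (3068 in all). Counts higher were 3171 without the filter, 468 at 10 FPKM, 1229 with mitochondrial scaling and 966 to 1957 with a library left out. Counts lower were 559 at 10 FPKM (1027 in all), 1891 after median centring, 1761 after quantile normalization, 1825 with mitochondrial scaling, 656 at 0.01 and 727 to 1039 with a library left out (1783 to 2964 in all). Without knockout replicate 1, over the same genes, 1884 were higher and 1078 lower. Median centring and quantile normalization put the split at 1443 to 1891 and 1427 to 1761, and median centring moved the median of all genes from 0.12 to -0.16. The filter still asked for 3 libraries when one was left out. Cdkl3 turned to -0.26 after median centring (adjusted p = 0.014, which shifts genes without reads too), -0.14 after quantile normalization, -0.029 with mitochondrial scaling and -0.089 after trend removal, and ranged from -0.017 to 0.059 with a library left out (-0.0046 without wild type replicate 2, -0.017 without knockout replicate 3). Deviations of same-numbered libraries had r across genes of -0.05, -0.10 and 0.18, and those of different-numbered libraries r from -0.35 to 0.35. With 3 libraries per group these values cannot decide whether the numbers mark pairs. With the replicate block 1740 genes were higher and 1031 lower, and the same 2 members were called.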

Other observations

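Akr1c21, a steroid dehydrogenase of the aldo-keto reductase family, stood far above all other libraries in knockout replicate 1, as Srd5a2 did. Unlike Srd5a2, Akr1c21 also lay above every library labelled wild type in knockout replicates 2 and 3. It measured 83.1 FPKM in knockout replicate 1, 0.926 and 0.648 FPKM in knockout replicates 2 and 3, and 0.260 to 0.423 FPKM in the libraries labelled wild type. The ratio of Srd5a2 to Srd5a1 FPKM was 12.8 and 57.4 in wild type replicates 1 and 2, 207 in wild type replicate 3, where it rests on 1 read of Srd5a1 (68.9 if taken as 3 reads), and 6.54, 0.596 and 0.873 in knockout replicates 1 to 3, so Srd5a1 was the more abundant reductase in knockout replicates 2 and 3 only (exact permutation p of the log2 ratio 0.1, the smallest possible, from the values as listed). The ratio of Hsd3b2 to Hsd3b3 FPKM was 7.38, 7.44 and 5.24 against 28.1, 8.18 and 13.8.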
